A study of Mus musculus with 12 samples.

Results

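The Hox genes encode the homeodomain transcription factors that give cells along the body axis their positional identity. The genes were taken by symbol from the table of raw counts, as every Hox gene of the clusters A, B, C and D with a number, antisense transcripts left out. This gave 31 of the 36512 genes in the table: 9 in HoxA on chromosome 6, 9 in HoxB on chromosome 11, 7 in HoxC on chromosome 15 and 6 in HoxD on chromosome 2 (mm10 build). The GENCODE M21 annotation lists 39 Hox genes, and Hoxa11, Hoxa13, Hoxb13, Hoxc11, Hoxc12, Hoxd4, Hoxd11 and Hoxd13 were not analysed here.

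Poly(A) RNA was sequenced from cells of the aorta and the fat around it, separated by flow cytometry from CD-1 mouse pups of mixed sex at 3 days of age. The labels name 4 populations, with 3 libraries each: progenitor cells, intermediate cells, preadipocytes and smooth muscle cells. No group carried a transgene or treatment in the labels. Neither the number of pups in a library nor the surface markers of the sort were given in the sources used here. Nothing says that replicates came from separate litters, so the p-values measure only the spread among libraries, which may be technical.

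In each cluster the genes lie in the order of their paralog number, and low numbers are turned on earlier and nearer the head than high numbers. Cells of the trunk keep part of this code after birth, so that fibroblasts, fat and vessel wall from different levels of the body carry different Hox sets. The aorta is such a case: its smooth muscle comes from neural crest in the arch and from somites in the descending part. Hox proteins bind DNA with TALE cofactors of the Pbx, Meis and Pknox families, while Polycomb and Trithorax complexes keep the clusters silent or open.

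Promoters of 4 HoxA members are shown because the values below turn on them: Hoxa5 had the highest level of all members, Hoxa2 and Hoxa6 were lower and Hoxa9 was higher in preadipocytes than in progenitor cells. Each is the 250 bases before the RefSeq start on GRCm38.p6, 5′ to 3′ on the minus strand of chromosome 6, with CpG in capitals. The windows are chr6:52204588-52204837 for Hoxa5, chr6:52164832-52165081 for Hoxa2, chr6:52208673-52208922 for Hoxa6 and chr6:52227371-52227620 for Hoxa9.

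Hoxa5: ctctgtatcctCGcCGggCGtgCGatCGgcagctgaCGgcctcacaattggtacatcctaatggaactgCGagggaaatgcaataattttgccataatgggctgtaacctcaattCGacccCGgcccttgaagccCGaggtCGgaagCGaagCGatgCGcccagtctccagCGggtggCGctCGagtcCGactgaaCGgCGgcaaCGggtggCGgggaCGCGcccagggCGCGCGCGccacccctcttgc.
Hoxa2: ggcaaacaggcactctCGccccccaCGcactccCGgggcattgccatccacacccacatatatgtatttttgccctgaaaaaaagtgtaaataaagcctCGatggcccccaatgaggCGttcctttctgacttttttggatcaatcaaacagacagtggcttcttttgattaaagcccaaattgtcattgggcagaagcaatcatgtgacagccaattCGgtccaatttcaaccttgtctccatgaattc.
Hoxa6: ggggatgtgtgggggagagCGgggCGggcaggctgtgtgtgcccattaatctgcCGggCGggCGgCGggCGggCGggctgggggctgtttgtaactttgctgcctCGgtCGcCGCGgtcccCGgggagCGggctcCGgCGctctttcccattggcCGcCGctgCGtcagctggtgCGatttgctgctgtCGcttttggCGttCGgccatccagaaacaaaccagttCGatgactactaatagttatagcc.
Hoxa9: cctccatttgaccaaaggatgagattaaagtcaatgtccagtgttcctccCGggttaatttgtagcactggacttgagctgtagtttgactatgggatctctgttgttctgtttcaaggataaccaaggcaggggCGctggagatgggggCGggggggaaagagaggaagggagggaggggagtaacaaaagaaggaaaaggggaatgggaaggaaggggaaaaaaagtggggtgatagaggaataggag.

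These windows differ widely in CpG: 28 in Hoxa5 and 24 in Hoxa6, against 6 in Hoxa2 and 3 in Hoxa9. The Hoxa9 window lies inside the annotated gene, whose 5′ end is at position 52231089, so its count describes that RefSeq start only. The RefSeq table held 24 Hox windows from 22 genes, 18 of them from 17 members. The median CpG count of the 24 was 12.5, beside 6 over all 32851 windows. The motif TGATTNAT, a binding sequence of Hox proteins with Pbx, was searched on both strands. It was found once in the Hoxa2 window. Of the 24 Hox windows, 2 held it (8.33%), beside 2.83% of all windows, and the other was a window of Hoxd11, which was not analysed here. CCAAT stood 4 times in the Hoxa2 window, once each in those of Hoxa5 and Hoxa6 and not in that of Hoxa9, and 58.3% of Hox windows and 33.9% of all windows held it. These are descriptions of the letters only.

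Libraries held 11701825 to 17123109 counts, so that a count of 0 allows up to 0.175 to 0.256 CPM (counts in each 1000000), counting error only. Progenitor, adipocyte and smooth muscle marker lists were each highest in the population so named, with no overlap: summed progenitor markers (Pi16, Dpp4, Pdgfra and others) came to 3990 to 4510 CPM in progenitor libraries and at most 917 elsewhere. Smooth muscle libraries also held 729 to 972 CPM of neuron and Schwann markers (at most 127 elsewhere) and 1110 to 1500 CPM of mesothelial markers (at most 193 elsewhere). Preadipocyte libraries held 513 to 8780 CPM of red blood cell markers, beside at most 163 elsewhere. Olfactory and vomeronasal receptor genes, which these cells should lack, came to 774 to 1117 CPM in smooth muscle libraries and 40.6 to 345 CPM in the others. Their 95th percentile per kb of exon served as a background in each library. In bulk libraries fewer cells of a type and less RNA per cell cannot be told apart.

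Levels are compared between genes as CPM per kb of exon. The Hox RNA of these cells was that of the middle of the clusters. Of the 31 members, 13 lay above the receptor background in all 12 libraries, 7 in none and 11 in some. The 13 are Hoxa2 to Hoxa7, Hoxb4 to Hoxb7, Hoxc4, Hoxc6 and Hoxc8. Hoxa5, which patterns the neck and upper chest and the lung, had the highest mean level, 13.2 CPM per kb, followed by Hoxa7 at 5.29, Hoxb7 at 4.54, Hoxc8 at 4.04, Hoxa6 at 3.12 and Hoxb6 at 2.87. HoxD was low: its highest member, Hoxd8, had a mean of 0.305 CPM per kb and the other 5 had at most 0.0514.

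**Figure D1:**
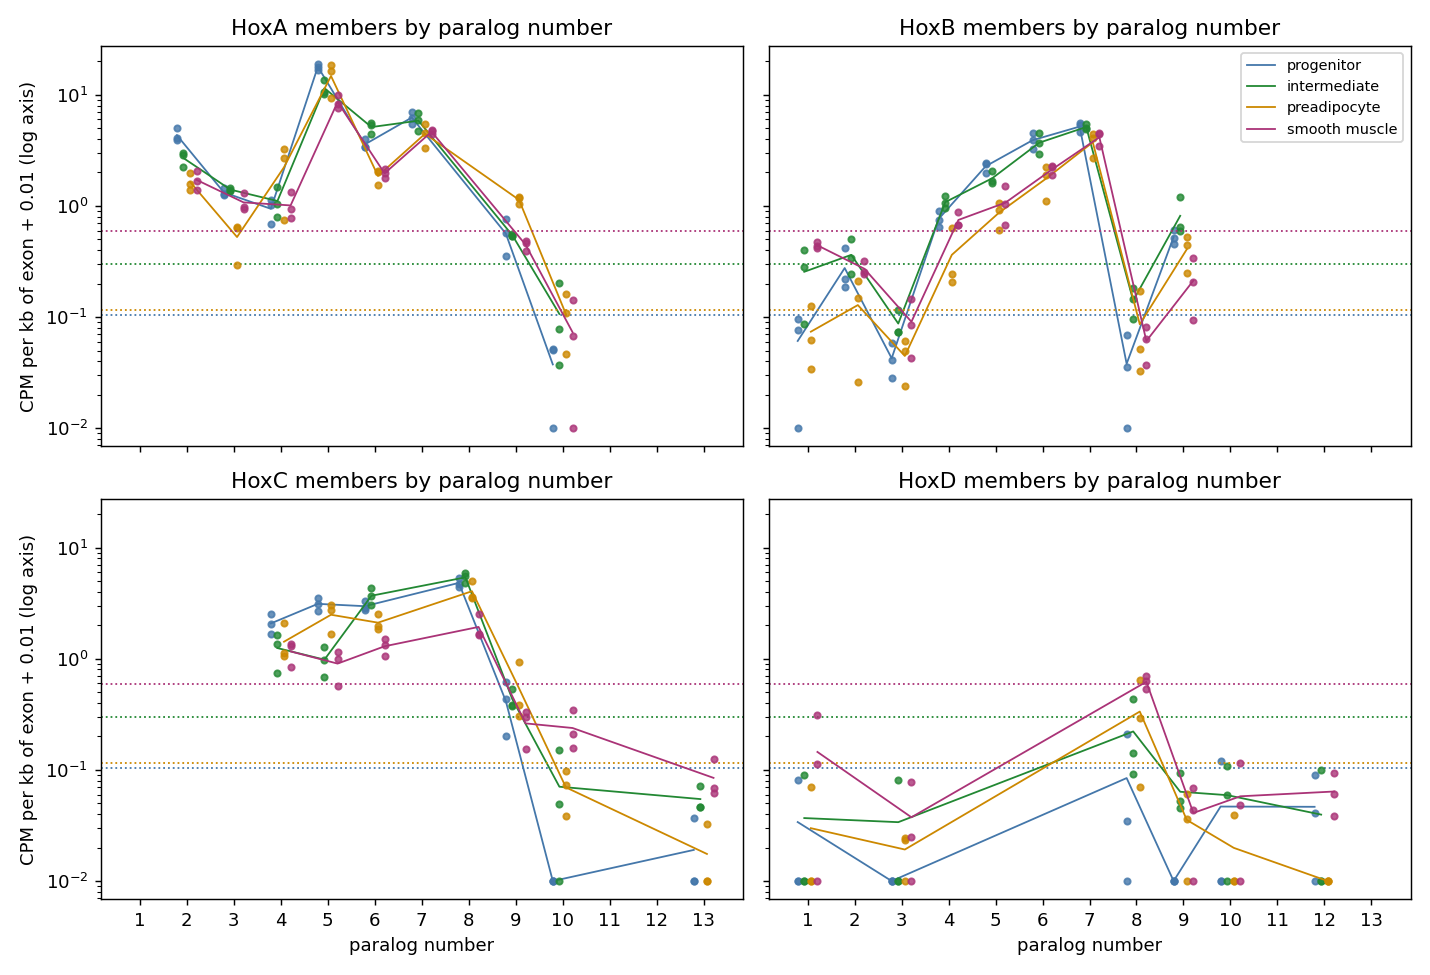
Level of Hox members by paralog number, as CPM per kb of exon plus 0.01 on a log axis, 1 panel per cluster; points are libraries, lines join population means, and dotted lines mark the mean 95th percentile of the receptor genes in each population. HoxA, HoxB and HoxC levels peak between paralog groups 5 and 8, drop at Hoxb8 and lie near or below the dotted lines from group 10 on, and Hoxa5 stands highest.

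Summed over members, the level was 61.8 ± 1.28 CPM per kb (SD, n = 3) in the progenitor, 54.3 ± 4.93 in the intermediate, 45.2 ± 11.9 in the preadipocyte and 36.1 ± 3.06 in the smooth muscle libraries. The preadipocyte libraries were uneven, at 54.3, 49.7 and 31.7, and replicate 3 lay below every smooth muscle library. Paralog groups 4 to 9 held 89.3 ± 1.27%, 89.4 ± 1.79%, 93.8 ± 0.899% and 86.1 ± 1.87% of this sum in the same order. Groups 1 to 3 held 5.09 to 6.26% in preadipocyte libraries and 8.40 to 14.4% in all others, so the preadipocyte range stood apart.

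Within the middle, the weight differed. Group 5 held 37.6 ± 0.709% in progenitor and 39.7 ± 4.87% in preadipocyte libraries, against 26.1 ± 1.60% in intermediate and 29.1 ± 2.75% in smooth muscle libraries, and the 2 pairs did not overlap. Group 6 held 22.9 ± 1.67% in intermediate libraries, above the 11.9 to 17.0% of every other library. Weighting each paralog number by its level gave a mean of 5.52 ± 0.059 in the progenitor, 5.76 ± 0.053 in the intermediate, 5.75 ± 0.126 in the preadipocyte and 5.56 ± 0.013 in the smooth muscle libraries, differences of under 1 paralog number.

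By cluster, HoxA held 57.2 ± 0.862% of the summed level in the progenitor, 53.0 ± 1.79% in the intermediate, 59.1 ± 3.17% in the preadipocyte and 56.3 ± 2.19% in the smooth muscle libraries. HoxB held 20.97 ± 0.563%, 24.5 ± 1.13%, 16.2 ± 0.529% and 25.1 ± 2.24%, lowest in every preadipocyte library. HoxC held 21.6 ± 0.728%, 21.8 ± 1.66%, 23.9 ± 3.44% and 16.0 ± 1.41%, lowest in every smooth muscle library. HoxD held 0.275 ± 0.205%, 0.737 ± 0.365%, 0.804 ± 0.437% and 2.501 ± 0.727%. The smooth muscle HoxD share stood above all others, in the libraries whose receptor background was also the highest, and it was 1.54% when an even background per kb was taken off.

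**Figure D2:**
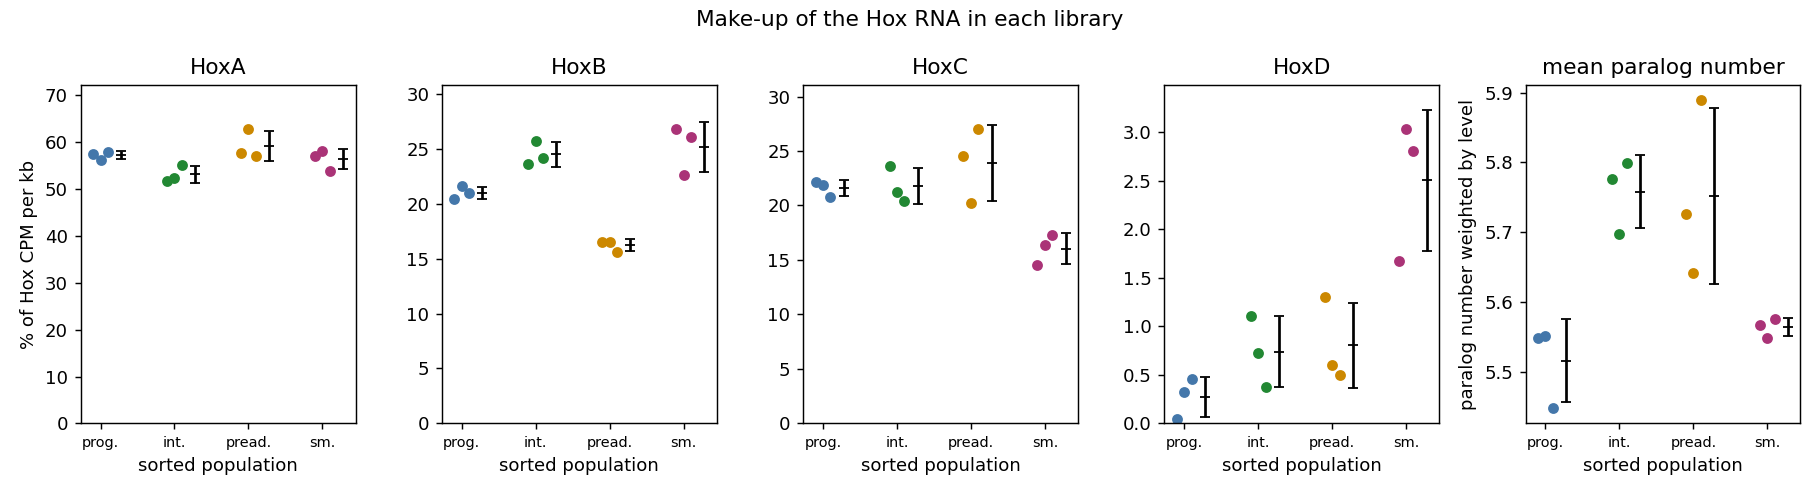
Share of the summed Hox level (percent of CPM per kb) in each cluster, and the mean paralog number weighted by level, in 3 libraries of each population (prog., progenitor; int., intermediate; pread., preadipocyte; sm., smooth muscle); bars are the mean ± SD. HoxB is lowest in the preadipocyte and HoxC in the smooth muscle libraries, and the mean paralog numbers stay between 5.45 and 5.89 (that axis does not start at 0).

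The 5 members of paralog groups 10 to 13 (Hoxa10, Hoxc10, Hoxc13, Hoxd10 and Hoxd12), which pattern the loin, tail and distal limb, were too low to test. Together they had 1 to 18 counts in a library. Per kb of exon this was 0.334 ± 0.364 counts in the progenitor, 0.695 ± 0.337 in the intermediate, 0.695 ± 0.376 in the preadipocyte and 1.28 ± 0.255 in the smooth muscle libraries. The receptor genes, pooled in the same way, had 0.156, 0.219 and 0.391 counts per kb in the progenitor and 0.391, 0.958 and 0.955 in the intermediate libraries. They had 0.293, 0.136 and 0.676 in the preadipocyte and 2.81, 2.53 and 2.03 in the smooth muscle libraries. Library by library, the Hox value lay under the receptor value in smooth muscle and above it in preadipocyte libraries. Progenitor and intermediate libraries lay on both sides. Hoxc10, known as a marker of some subcutaneous fat, had 0 counts in each progenitor library, which allows up to 0.175 to 0.203 CPM, and 9, 6 and 4 counts in the smooth muscle libraries.

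Hoxb3, Hoxb8, Hoxd1, Hoxd3 and Hoxd9 were also too low to test, with at most 8 counts in any library. The neighbours of Hoxb8 in number, Hoxb7 and Hoxb9, had 75 to 127 and 3 to 41 counts. Hoxd1 had 0, 0 and 2 counts in the progenitor, 0, 2 and 0 in the intermediate, 0, 0 and 2 in the preadipocyte and 0, 3 and 8 in the smooth muscle libraries. Hoxd10 had 0, 0 and 3 counts in the progenitor, 2, 0 and 1 in the intermediate, 1, 0 and 0 in the preadipocyte and 0, 3 and 1 in the smooth muscle libraries. Hoxd1 and Hoxd10 were above background in no library.

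Reads of overlapping genes could not be told apart, since the sources used here do not say whether counting used strand. Exons of 18 members overlap no other gene. Hoxb3 (52.9%, by Hoxb3os) and Hoxd3 (62.8%, by 4 genes, Hoxd4 among them) overlap over most of their exon length, Hoxb2 over 27.3%, Hoxa3 over 27.1% and Hoxa7 over 20.4%. At most 1.44% of a member's 50-base stretches, in Hoxc9, occur elsewhere in the annotated transcripts.

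A low-count filter left 21 members for testing, 8 of HoxA, 7 of HoxB, 5 of HoxC and Hoxd8. They passed in part because they were high in some population, so their counts do not speak for the 10 others. An edgeR quasi-likelihood F test, with p-values adjusted over all 21285 genes tested and calls at 0.05, found a difference among the 4 populations in 16 of the 21 (76.2%). Of all genes tested, 79.8% were called, so the share in the Hox members was near the background. Hoxa7, Hoxb2, Hoxb7, Hoxc4 and Hoxc9 were not called. Below, a level is TMM-scaled CPM, and a difference is the edgeR log2 fold change ± SE.

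In HoxA, Hoxa5 stood at 33.6, 31.6 and 35.4 CPM in the progenitor, 20.0, 19.2 and 25.4 in the intermediate, 30.8, 34.8 and 17.4 in the preadipocyte and 14.2, 15.5 and 18.7 in the smooth muscle libraries. Its progenitor libraries lay above all intermediate and smooth muscle ones, and preadipocyte replicate 3 lay far below its 2 partners. Hoxa7, a gene of the chest region, stood at 17.9, 20.3 and 15.6 CPM in the progenitor, 17.1, 13.5 and 19.8 in the intermediate, 15.8, 13.02 and 9.55 in the preadipocyte and 13.7, 12.6 and 13.7 in the smooth muscle libraries. The intermediate range of Hoxa7 overlapped that of each other population (F test adjusted p = 0.0787). Hoxa6, its neighbour, stood at 3.48, 2.93 and 2.94 CPM in the progenitor, 4.62, 3.90 and 4.89 in the intermediate, 1.78, 1.75 and 1.33 in the preadipocyte and 1.86, 1.71 and 1.55 in the smooth muscle libraries. Every intermediate library of Hoxa6 was above every progenitor library, and these above both other populations.

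In HoxB, Hoxb7 stood at 8.59, 8.25 and 7.08 CPM in the progenitor, 7.82, 7.57 and 8.34 in the intermediate, 6.84, 6.27 and 4.17 in the preadipocyte and 6.80, 5.33 and 7.05 in the smooth muscle libraries. Hoxb7 was not called (F test adjusted p = 0.130). Its lowest progenitor or intermediate library, at 7.08 CPM, lay just above its highest preadipocyte or smooth muscle library, at 7.05 CPM. Hoxb6 stood at 6.43, 7.64 and 8.88 CPM in the progenitor, 7.20, 5.70 and 8.88 in the intermediate, 3.72, 4.40 and 2.17 in the preadipocyte and 4.36, 3.68 and 4.51 in the smooth muscle libraries. Hoxb5 stood at 5.50, 6.75 and 6.68 CPM in the progenitor, 4.62, 4.42 and 5.71 in the intermediate, 2.96, 2.53 and 1.67 in the preadipocyte and 2.86, 1.84 and 4.16 in the smooth muscle libraries. Hoxb5 and Hoxb6 are genes that pattern the chest with their HoxA counterparts. For both, as narrowly for Hoxb7, every progenitor and intermediate library lay above every preadipocyte and smooth muscle library.

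In HoxC, Hoxc8, a chest gene, stood at 12.5, 13.2 and 15.1 CPM in the progenitor, 16.6, 13.6 and 15.6 in the intermediate, 14.2, 9.95 and 10.2 in the preadipocyte and 4.65, 4.57 and 7.12 in the smooth muscle libraries. Hoxc6 stood at 6.58, 7.98 and 6.81 CPM in the progenitor, 8.80, 7.35 and 10.4 in the intermediate, 6.03, 4.70 and 4.44 in the preadipocyte and 3.15, 2.54 and 3.59 in the smooth muscle libraries. For both, the smooth muscle libraries lay below all 9 others. Hoxc5 followed another order, at 9.60, 10.9 and 8.28 CPM in the progenitor, 3.91, 2.10 and 2.99 in the intermediate, 8.51, 9.28 and 5.17 in the preadipocyte and 1.72, 3.05 and 3.52 in the smooth muscle libraries. Progenitor and preadipocyte libraries lay above all intermediate and smooth muscle ones for Hoxc5, although its neighbour Hoxc6 did not drop in intermediate cells.

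In HoxD, Hoxd8 stood at 0, 0.546 and 0.0668 CPM in the progenitor, 1.16, 0.225 and 0.362 in the intermediate, 1.72, 0.784 and 0.167 in the preadipocyte and 1.43, 1.90 and 1.69 in the smooth muscle libraries. It was above the receptor background in 2 of 3 smooth muscle and 2 of 3 preadipocyte libraries and in 1 library of each other population.

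**Figure D3:**
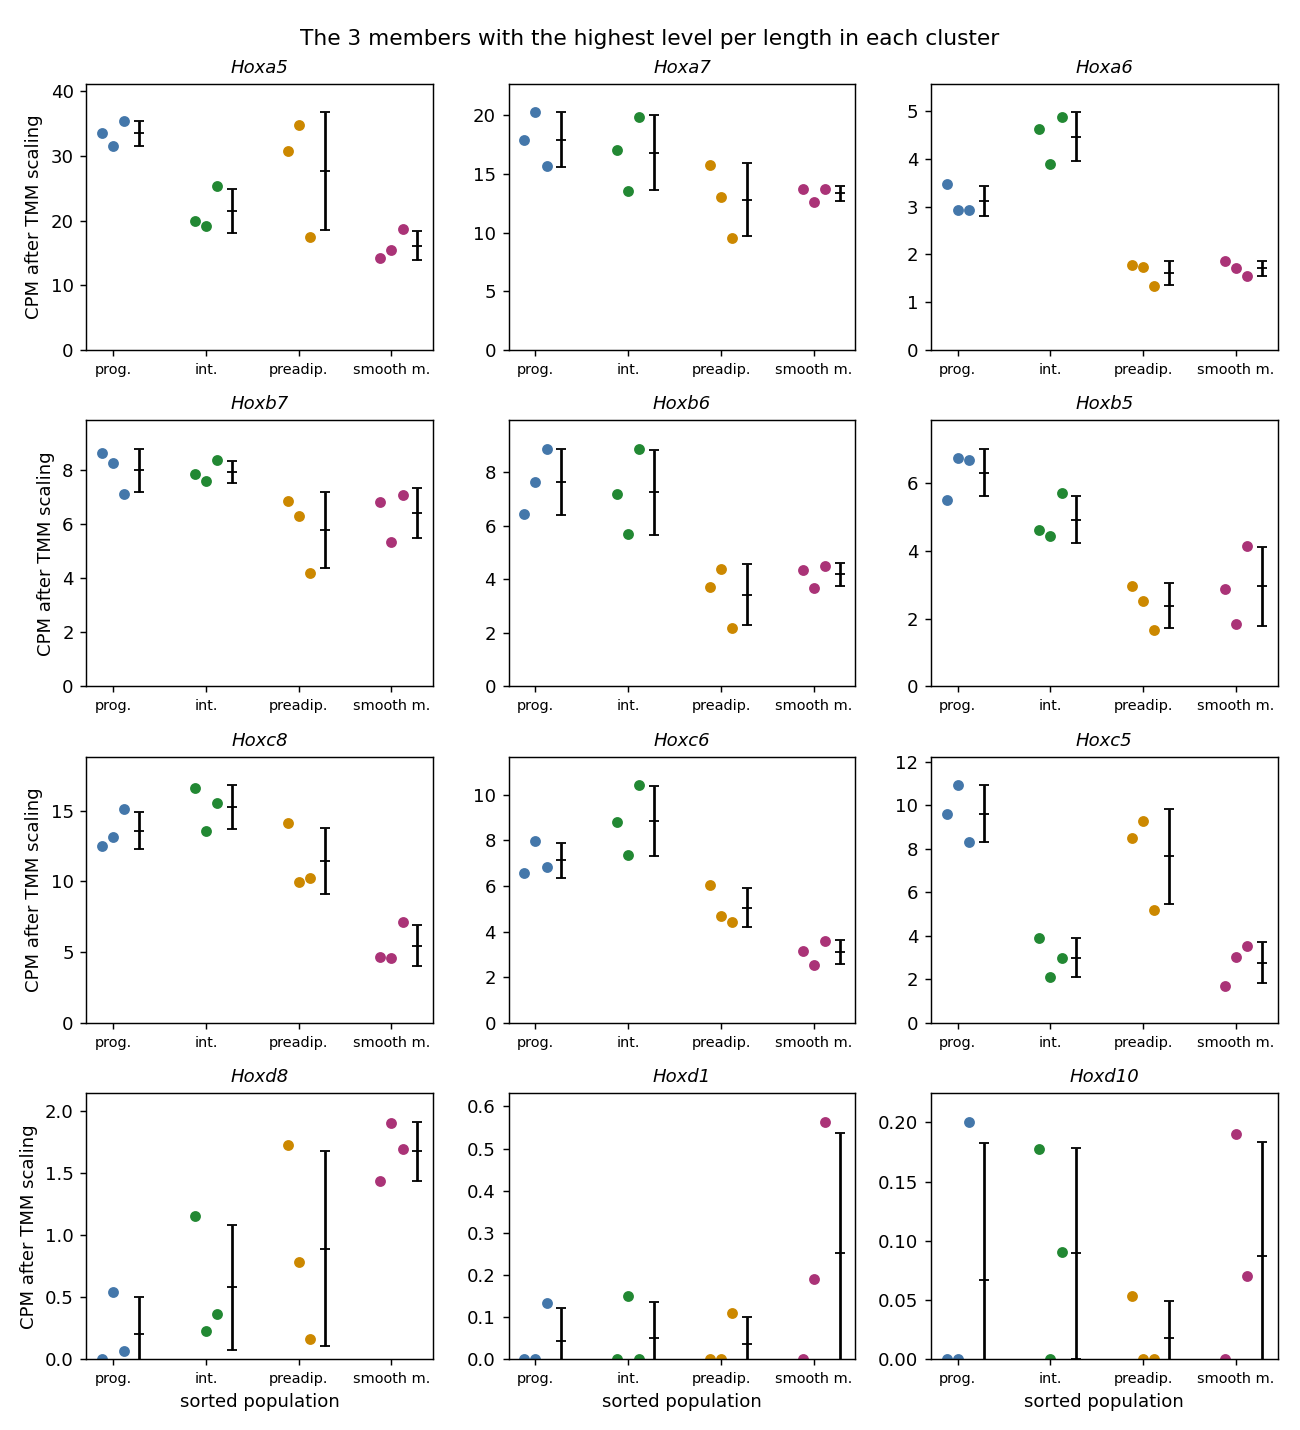
TMM-scaled CPM of the 3 members with the highest level per kb in each cluster, in 3 libraries of each population (preadip., preadipocyte; smooth m., smooth muscle); bars are the mean ± SD, and those that would pass 0 end at 0. Hoxb5, Hoxb6 and, narrowly, Hoxb7 separate progenitor and intermediate from the other libraries. Hoxc6 and Hoxc8 are lowest in smooth muscle, and Hoxc5 is low in intermediate and smooth muscle libraries.

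Preadipocytes were first compared with progenitor cells. Of the 21 tested members, 2 were higher, where 25.1% of all genes were, and 7 were lower, where 25.9% of all genes were. The members' median difference was -0.49, beside 0.04 over all genes. Both higher members are of HoxA, and the lower ones are of HoxA and HoxB; a difference between clusters was not tested. Hoxd8 (2.05 ± 0.91, adjusted p = 0.0716) and the 5 HoxC members, among them Hoxc5 (-0.33), did not pass.

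Head-ward genes of HoxA were among the lower members in preadipocytes. Hoxa2, which patterns the hindbrain and the second pharyngeal arch, fell by 1.40 ± 0.23, and Hoxa3, a gene of the third arch, by 1.35 ± 0.26. In HoxB, Hoxb5 fell by 1.40 ± 0.29, Hoxb6 by 1.16 ± 0.26 and Hoxb4 by 1.08 ± 0.39. Hoxa6 fell by 0.94 ± 0.25.

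Hoxa9 and Hoxa4 went the other way. Hoxa9, the most tail-ward tested member of HoxA and a gene also known from blood stem cells, stood at 1.94, 3.14 and 4.21 CPM in progenitor and 6.46, 5.73 and 6.67 in preadipocyte libraries, with no overlap, a rise of 1.01 ± 0.26 (adjusted p = 0.00346). In the intermediate libraries Hoxa9 stood at 2.93, 2.92 and 3.08 CPM, and in the smooth muscle libraries at 2.15, 2.66 and 2.54. Hoxa4 stood at 1.08, 1.77 and 1.60 CPM in the progenitor, 1.24, 1.65 and 2.36 in the intermediate, 5.17, 4.28 and 1.17 in the preadipocyte and 1.22, 2.09 and 1.48 in the smooth muscle libraries. Its rise of 1.24 ± 0.45 (adjusted p = 0.030) came from preadipocyte replicates 1 and 2, and replicate 3 lay within the progenitor range.

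Without preadipocyte replicate 1, 12 members were lower and 1 higher, where 23% and 22.7% of all genes were. The Hoxa4 call was lost without either preadipocyte replicate 1 or 2 or progenitor replicate 1 or 3 (adjusted p = 0.0620 to 0.152) and the Hoxb4 call without preadipocyte replicate 2 or 3 or progenitor replicate 2 or 3 (0.0548 to 0.114). With library size alone as the scale the median of all genes moved to 0.43, and 3 members were higher and 4 lower. Of all genes 36.9% were then higher and 17.8% lower. Red blood cell markers (513 to 8780 CPM in preadipocyte and 48.5 to 163 in progenitor libraries), skeletal and heart muscle markers (60.2 to 159 and 3.87 to 10.8) and neuron and Schwann markers (83.2 to 127 and 7.82 to 9.89) moved with this comparison, and their part in it was not tested.

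Intermediate cells were compared with progenitor cells next, and Hoxc5, Hoxa2 and Hoxa5 were lower. These are 3 of the 21 members tested, where 13.4% of all genes were, and 0 were higher by edgeR, where 14.1% of all genes were. Both DESeq2 and limma-voom also gave 0 higher, and 2 members, Hoxa6 and Hoxb1, had higher levels at an unadjusted edgeR p under 0.05. The median difference was 0.08, beside 0.05 over all genes, and the share called lower lies near that of all genes. Hoxc5 fell by 1.68 ± 0.31 (adjusted p = 0.00102), a 3.21-fold lower level, while its neighbours Hoxc6 (0.31 ± 0.21) and Hoxc4 (-0.73 ± 0.33) did not pass. Hoxa2 fell by 0.68 ± 0.23 (adjusted p = 0.0379) and Hoxa5 by 0.64 ± 0.21 (adjusted p = 0.0367). The last pair of calls was lost without progenitor replicate 1 (adjusted p = 0.0629 and 0.0797) or progenitor replicate 3 (0.125 and 0.0844), each leaving 1 lower, and that of Hoxa2 also without intermediate replicate 3 (0.0693). Of all genes 8.25% were lower without progenitor replicate 1 and 9.96% without progenitor replicate 3. Without intermediate replicate 1 or preadipocyte replicate 3, 1 member was higher, where 9.24% and 17.4% of all genes were.

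**Figure D4:**
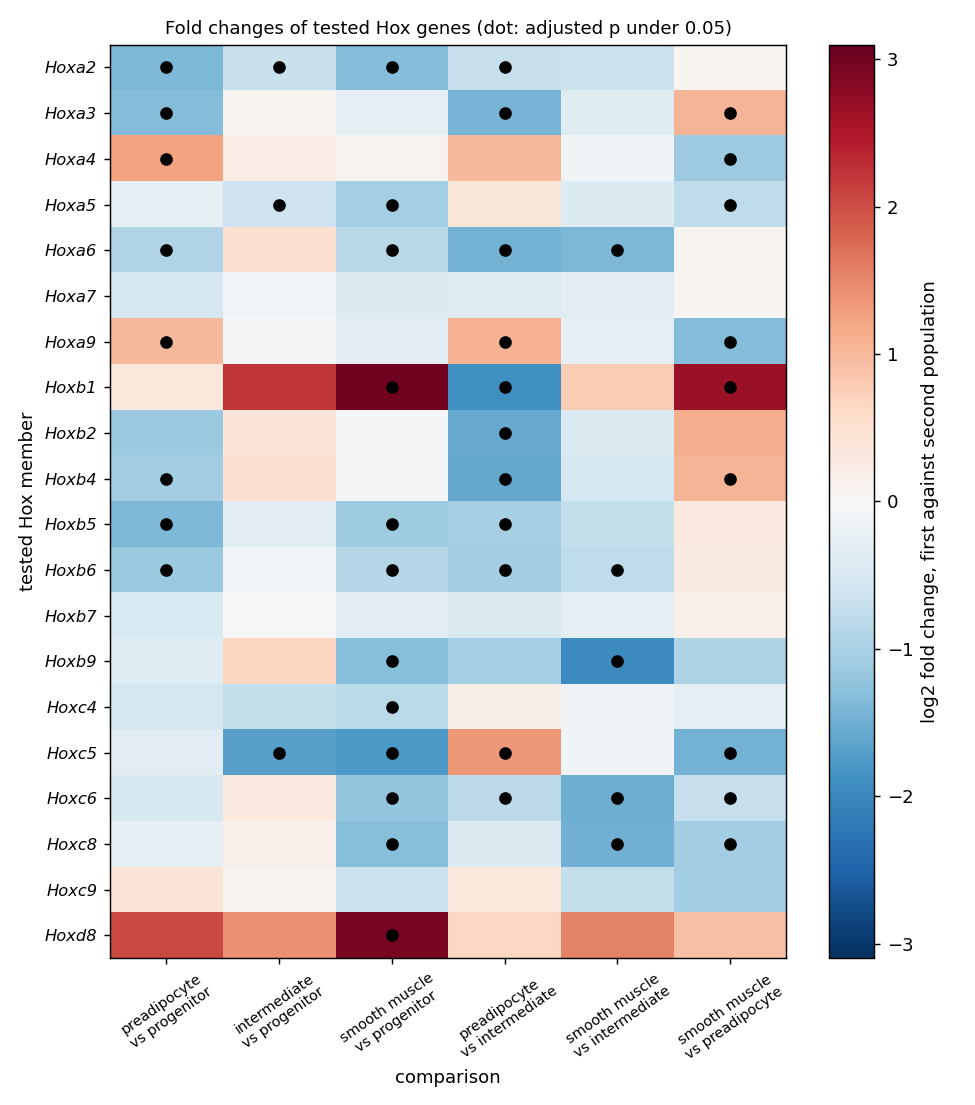
Log2 fold change of tested Hox members (rows) in the 6 comparisons (columns), first against second population, by edgeR; a black dot marks an adjusted p under 0.05. Hoxa2, Hoxa3 and Hoxb4 to Hoxb6 are blue in both preadipocyte columns against progenitor and intermediate, while Hoxc6 and Hoxc8 are blue in all 3 smooth muscle columns.

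Against progenitor cells, smooth muscle cells had lower levels of Hoxc5, Hoxc8 and Hoxc6 and of 7 other members. Of the 21 members tested, 10 were lower, where 23.6% of all genes were, and 2 were higher, where 30.5% of all genes were. The median difference was -0.67, beside 0.09 over all genes. In HoxC 4 of 5 were lower, in HoxA 3 of 8 and in HoxB 3 of 7. Of the 16 tested members of groups 4 to 9, 9 were lower: Hoxc5 fell by 1.79 ± 0.30 (adjusted p = 0.000184), Hoxc8 by 1.32 ± 0.21, Hoxc6 by 1.20 ± 0.23, Hoxb5 by 1.10 ± 0.29, Hoxa5 by 1.06 ± 0.22, Hoxb6 by 0.87 ± 0.26, Hoxa6 by 0.86 ± 0.25, Hoxb9 by 1.32 ± 0.49 and Hoxc4 by 0.84 ± 0.33. Of groups 1 to 3, Hoxa2 fell by 1.34 ± 0.23, and Hoxa3 (-0.30 ± 0.25) and Hoxb2 (-0.03 ± 0.56) did not pass.

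The higher pair was of low abundance. Hoxb1, which sets the identity of a hindbrain segment, stood at 0.155, 0 and 0.200 CPM in the progenitor, 0.178, 0.900 and 0.634 in the intermediate, 0.269, 0.121 and 0.0556 in the preadipocyte and 1.07, 0.952 and 0.986 in the smooth muscle libraries. Its rise over progenitor was 3.00 ± 0.77 (edgeR adjusted p = 0.00417), with no overlap. Hoxb1 had 15, 15 and 14 counts in the smooth muscle libraries and 0 to 12 in the others. It thus passed the low-count filter through the population where it was called higher, which limits this p-value and the count of 2 higher. In none of the smooth muscle libraries was Hoxb1 above the receptor background, which was 0.584 ± 0.071 CPM per kb there and 0.095 ± 0.041 in progenitor libraries, beside a Hoxb1 level of 0.432 and 0.0510. Hoxd8 rose by 2.95 ± 0.88 (adjusted p = 0.0104). With an even background per kb taken off each library, Hoxb1 stayed called (2.72, adjusted p = 0.0324) and Hoxd8 did not (3.00, adjusted p = 0.0624). The rate taken off is an average over the receptor genes, so this cannot tell Hoxb1 from a receptor gene above that average. The receptor mean was itself higher in smooth muscle (0.214 CPM per kb) than in progenitor libraries (0.024).

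With library size alone as the scale the median of all genes moved to 0.53, and 3 members were higher and 5 lower, without Hoxa6, Hoxb5, Hoxb6, Hoxb9 and Hoxc4. Of all genes 45.2% were then higher and 9.55% lower. Without intermediate replicate 1, 2 or 3, which are not in this comparison, 14 members were lower each time. Of all genes 34.5 to 34.7% were then lower, and their median moved to -0.16. The calls of Hoxb9 and Hoxc4 were also lost without progenitor replicate 1 (adjusted p = 0.0777 and 0.124), smooth muscle replicate 1 (0.123 and 0.160) or smooth muscle replicate 2 (0.0749 and 0.0545), and that of Hoxc4 without progenitor replicate 3 (0.0628) or smooth muscle replicate 3 (0.0558). The part of the neuron, Schwann and mesothelial markers of the smooth muscle libraries in these Hox differences was not tested.

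Against intermediate cells, preadipocytes were lower in 10 of the 21 members tested, where 31.1% of all genes were, and higher in 2, where 26% of all genes were. The median difference was -0.71, beside -0.24 over all genes. Low paralog numbers were among the lower members: Hoxb1 fell by 1.89 ± 0.76, Hoxb2 by 1.57 ± 0.59, Hoxa3 by 1.43 ± 0.26 and Hoxa2 by 0.71 ± 0.24. Hoxb1 was above the receptor background in 1 intermediate and 1 preadipocyte library, and Hoxb2 in 2 of each. That background was also lower in preadipocyte (0.11 CPM per kb) than in intermediate libraries (0.29). With an even background taken off, both calls were lost (edgeR adjusted p = 0.0892 and 0.0985). In HoxB, Hoxb4 fell by 1.58 ± 0.39, Hoxb6 by 1.08 ± 0.27 and Hoxb5 by 1.04 ± 0.30, so that 5 of 7 were lower. Hoxa6 fell by 1.46 ± 0.24 and Hoxc6 by 0.80 ± 0.22. The 2 that rose were Hoxc5 (1.36 ± 0.31, adjusted p = 0.00136) and Hoxa9 (1.08 ± 0.26, adjusted p = 0.0023).

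The Hoxb1 call (adjusted p = 0.0438) was lost in 16 of 19 alternatives, and without intermediate replicate 2 it had an adjusted p of 0.270. Library size alone moved the median of all genes to 0.19 and gave 4 higher and 5 lower, losing Hoxa2, Hoxb1, Hoxb2, Hoxb5 and Hoxc6. Of all genes 36.5% were then higher and 19.9% lower. Without preadipocyte replicate 3, 4 were higher and 7 lower, where 24.2% and 31.6% of all genes were. The Hoxa2 call was lost without progenitor replicate 2, intermediate replicate 1 or 2 or preadipocyte replicate 2 or 3 (adjusted p = 0.0504 to 0.133), that of Hoxb2 without intermediate replicate 1 or 2 or preadipocyte replicate 2 or 3 (0.0551 to 0.183), and those of Hoxb5 (0.0526) and Hoxc6 (0.0709) without intermediate replicate 3. Red blood cell markers (513 to 8780 CPM in preadipocyte and 2.55 to 6.43 in intermediate libraries), skeletal and heart muscle markers (60.2 to 159 and 10.9 to 29.4) and neuron and Schwann markers (83.2 to 127 and 18.8 to 30.5) moved with this comparison, and their part in it was not tested.

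Against intermediate cells, smooth muscle cells were lower in 5 of the 21 members tested, where 13.1% of all genes were, and higher in 0 by edgeR, where 15.7% of all genes were. DESeq2 and limma-voom also called 0 higher, as did an unadjusted edgeR p under 0.05. The median difference was -0.41, beside 0.10 over all genes. All 5 are of groups 6 to 9, which hold 10 of the 21 tested members, and no pattern by position was tested. Hoxb9, a gene of the lower chest, stood at 1.55, 1.30 and 1.14 CPM in the progenitor, 1.51, 3.07 and 1.63 in the intermediate, 1.13, 1.33 and 0.611 in the preadipocyte and 0.215, 0.508 and 0.846 in the smooth muscle libraries. Intermediate replicate 2 was the highest, and no smooth muscle library reached the intermediate range, with a drop of -1.98 ± 0.48 (adjusted p = 0.00518). In smooth muscle Hoxb9 was above the receptor background in 0 of 3 libraries (0.203 against 0.584 CPM per kb), so its level there is at background. Hoxc6 fell by 1.52 ± 0.23, Hoxc8 by 1.49 ± 0.21, Hoxa6 by 1.38 ± 0.25 and Hoxb6 by 0.79 ± 0.26.

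Leaving out progenitor replicate 2, intermediate replicate 2 or preadipocyte replicate 3 raised the lower calls to 8, 9 and 8. Of all genes, 18%, 16.4% and 14.9% were then lower, beside 13.1% in the main fit. The Hoxb6 call was lost without smooth muscle replicate 1 (adjusted p = 0.0779), 2 (0.117) or 3 (0.0607), and library size alone moved the median of all genes to 0.58 and gave 1 higher and 4 lower. With that scale 43.4% of all genes were higher and 5.37% lower.

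Between smooth muscle cells and preadipocytes the calls went both ways. Of the 21 members tested, 4 were higher in smooth muscle, where 40.7% of all genes were, and 6 were lower, where 25.9% of all genes were. The median difference was 0.06, beside 0.35 over all genes. A trend with paralog number was not tested. Among groups 1 to 3, Hoxb1 (2.67 ± 0.71) and Hoxa3 (1.05 ± 0.26) were higher. Of the 10 tested members of groups 6 to 9, 3 were lower: Hoxa9 (-1.36 ± 0.26), Hoxc8 (-1.07 ± 0.21) and Hoxc6 (-0.71 ± 0.23). In groups 4 and 5 the calls were Hoxb4 higher (1.05 ± 0.39) and Hoxc5 (-1.46 ± 0.30), Hoxa4 (-1.14 ± 0.44) and Hoxa5 (-0.78 ± 0.21) lower. Hoxb1 stood at 0.432 CPM per kb in smooth muscle and 0.0639 in preadipocyte libraries, where the mean over the receptor genes was 0.214 and 0.0275, and it stayed higher with an even background taken off (2.48, adjusted p = 0.0273). That subtraction takes off an average rate only, so it cannot tell Hoxb1 from a receptor gene above the average. By the 95th percentile used as background, Hoxb1 and Hoxa9 were each above it in 0 of 3 smooth muscle libraries (0.432 and 0.439 against 0.584 CPM per kb). Hoxb1 also passed the low-count filter through smooth muscle, the population where it was called higher.

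The Hoxb4 call was lost in 10 of 20 alternatives, 7 of which left out 1 library: progenitor replicate 2, intermediate replicate 1, 2 or 3, preadipocyte replicate 2 or 3, or smooth muscle replicate 3 (adjusted p = 0.0927 to 0.130). The Hoxa4 call was lost without preadipocyte replicate 1 or 2 or smooth muscle replicate 1 or 3 (0.0780 to 0.144), and that of Hoxc6 without smooth muscle replicate 2 (0.0542). The neuron, Schwann, mesothelial and red blood cell markers given with the libraries also moved with the smooth muscle comparisons against intermediate cells or preadipocytes, and their part was not tested. Comparisons above share libraries, so a member's values in 2 of them are not independent.

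The genes around the Hox code were read from lists, whose counts are set beside the shares of all genes called: 79.8% differed among populations. In preadipocytes against progenitor cells 25.1% were higher and 25.9% lower, and in smooth muscle against progenitor cells 30.5% and 23.6%. In intermediate against progenitor cells the shares were 14.1% and 13.4%. Of the 9 TALE cofactors, through which Hox proteins bind DNA, 8 differed, near the 79.8% of all genes. Preadipocytes had lower levels than progenitor cells in 5 of 9 (25.9% of all genes) and higher in 0 by edgeR (0 also by DESeq2, limma-voom and an unadjusted p), with a list median of -0.97, beside 0.04 over all genes. Meis3 stood at 49.6 ± 4.28 CPM (SD, n = 3) in the progenitor, 29.4 ± 1.34 in the intermediate, 10.8 ± 2.37 in the preadipocyte and 26.9 ± 2.26 in the smooth muscle libraries. Pknox2 and Meis1 fell in preadipocytes against progenitor by 1.67 ± 0.17 and 1.16 ± 0.14. Smooth muscle had 2 higher and 5 lower than progenitor, and intermediate cells had 1 of each.

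Of the 24 Polycomb genes, 22 differed (79.8% of all genes), with 8 higher and 8 lower in preadipocytes than in progenitor cells (25.1% and 25.9% of all genes). Among subunits of the complex that methylates histone H3 at lysine K27, Suz12 rose by 1.76 ± 0.17, the catalytic Ezh2 by 1.40 ± 0.15 and Eed by 0.92 ± 0.15. The other catalytic subunit, Ezh1, named after its values were seen, fell by 1.02 ± 0.18 (edgeR adjusted p = 0.000208). Cbx6, a reader of that mark, fell by 1.70 ± 0.13. Smooth muscle had 5 higher and 6 lower than progenitor cells, and intermediate 3 higher and 4 lower (14.1% and 13.4% of all genes).

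Of the 12 Trithorax genes and K27 demethylases, 8 differed (79.8% of all genes). In preadipocytes against progenitor cells 6 were higher (25.1% of all genes) and 0 lower by edgeR (25.9% of all genes; 0 lower by DESeq2, 2 by limma-voom and 2 at an unadjusted p). Dpy30, a subunit of the methylases of lysine K4, rose by 1.76 ± 0.14, Hcfc1 by 0.78 ± 0.11, Wdr5 by 0.68 ± 0.13 and Ash2l by 0.65 ± 0.14. Intermediate and smooth muscle cells each had 1 higher and 1 lower than progenitor.

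Retinoic acid turns on the head-ward Hox genes through its receptors. Of the 7 tested genes among the caudal factors, Gdf11 and these receptors, 6 differed (79.8% of all genes), with 1 higher and 3 lower in preadipocytes than in progenitor cells (25.1% and 25.9% of all genes). Rarg fell from 36.3 ± 0.981 CPM in progenitor to 5.10 ± 2.45 in preadipocyte libraries, and Rarb (-1.59 ± 0.23) and Rara (-0.78 ± 0.21) were also lower. Rxrg rose from 2.01 ± 0.352 to 33.2 ± 9.63 CPM. The caudal factors Cdx1 and Cdx4, which turn on tail-ward Hox genes in the embryo, had means of at most 0.242 and 0.151 CPM and were not tested.

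Of 16 tested homeobox genes of other families, 14 differed (79.8% of all genes). Meox2, a mesoderm factor, stood at 80.9 ± 4.87 CPM in the progenitor, 112 ± 5.52 in the intermediate, 13.1 ± 2.99 in the preadipocyte and 7.53 ± 1.98 in the smooth muscle libraries. Prrx2 fell in smooth muscle by 2.63 ± 0.21 against progenitor. Isl1, a factor of heart progenitors and peripheral neurons, stood at 40.2 ± 7.64 CPM in smooth muscle and 0.698 ± 0.348 in progenitor libraries, in libraries that also hold neuron markers, whose part in it was not tested. In this list 2 were higher and 6 lower in preadipocytes than in progenitor cells (25.1% and 25.9% of all genes), and 6 and 6 in smooth muscle (30.5% and 23.6%).

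Genes next to the clusters were read as a comparison. Of 19 tested flanking genes 16 differed (79.8% of all genes), with 7 higher and 5 lower in preadipocytes than in progenitor cells (25.1% and 25.9% of all genes). Their median was 0.33, beside 0.04 over all genes and -0.49 in the Hox members. Beside HoxA, Hibadh rose by 1.27 ± 0.13, beside HoxC Hnrnpa1 by 1.47 ± 0.14, and beside HoxD Mtx2 by 1.41 ± 0.14 and Atp5g3 by 0.998 ± 0.13. In smooth muscle 2 flanking genes were higher and 5 lower than in progenitor cells.

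Of the 5 tested noncoding transcripts of the clusters, 4 differed, as did 79.8% of all genes. In preadipocytes against progenitor cells 1 was higher and 2 lower. Hoxaas2, which overlaps Hoxa3, stood at 2.79 ± 0.884 CPM in the progenitor, 3.35 ± 0.634 in the intermediate, 0.868 ± 0.094 in the preadipocyte and 2.83 ± 0.719 in the smooth muscle libraries. It fell in preadipocytes against progenitor by 1.67 ± 0.33, beside 1.35 ± 0.26 for Hoxa3. Hoxb5os fell by 1.41 ± 0.42, beside 1.40 ± 0.29 for Hoxb5. Hoxaas3, which overlaps Hoxa7, was higher in preadipocyte than in intermediate cells by 1.42 ± 0.31 (Hoxa7: -0.39 ± 0.20, not called). Hoxd3os1 was higher in smooth muscle than in progenitor cells by 3.59 ± 0.73, at 1.21 ± 0.449 against 0.0895 ± 0.102 CPM.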

How the data were processed

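Libraries were made from poly(A) RNA with a SMART-Seq v4 low-input kit, per the labels' protocols. The submitters' processing notes name STAR 2.5.2a, the mm10 build and DESeq2 1.26.0. How reads were counted, with which annotation and whether by strand, is not given in the sources used here. Analysis began from the whole-number counts per gene and library that the authors deposited, unscaled. Groups come from the sample titles. Of 36512 genes, 36480 were matched to GENCODE M21. Genes passing edgeR's filterByExpr (21285) were TMM-scaled and fitted by edgeR 4.0.16 (R 4.3.3) in 1 quasi-likelihood model over 12 libraries, two-sided, with Benjamini-Hochberg adjusted p-values and calls at 0.05. The SE of a fold change is the one its F statistic implies. Levels per kb divide TMM-scaled CPM by the union of a gene's exons.

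Given in every library were the 3 members with the highest level per kb in each cluster and, for each comparison and direction, the called member that changed most, with Hoxa9 added after its values were seen. From each list, up to 4 genes with the smallest F test p were named. The members and lists were chosen with earlier results of these data known. Alternatives were DESeq2-type size factors, library size alone, DESeq2 1.42.0, limma-voom (limma 3.58.1), no filter, at least 5 CPM in 3 libraries, only the 2 populations compared, a replicate block, an even background (receptor counts per kb) subtracted, leaving out each library, and other gene lengths. The fits were tested on simulated data. Replicate pairs differed by 3.92 to 70.9 times their degrees of freedom in chi-square, above sampling noise, and each was counted as its own sample. A few genes that these rules name are not reported here, in the text or in the figures.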

Additional observations from a re-analysis of the deposited data

How the results depend on the processing

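Of 51 calls of single members, 29 passed under every alternative that gave a value. Over 1047 alternative values, 949 stayed called, 98 were no longer called and 0 changed sign. The cause of these changes was not tested, beyond the fewer genes tested under the stricter filter and the fewer libraries where some were left out. Library size alone lost 14 calls, an even background subtracted 7 and no filter 6. With the replicate number as a replicate block, 1 call was lost (Hoxb1, preadipocyte vs intermediate, adjusted p = 0.0719), lower members there were 9 instead of 10, and 15 members differed among populations; the other counts were equal. Deviations of same-numbered libraries from their population means had correlations of -0.163 to 0.207. Those of replicate 3 were 0.13 to 0.207 among progenitor, intermediate and preadipocyte libraries, and -0.0991 to 0.0411 with smooth muscle. A shift shared by replicates of 1 number was not tested.

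Counts of members called, higher and lower, changed by over 1.5 times as follows. For preadipocyte vs progenitor, limma-voom and the fit of only the 2 populations gave 1 higher, at least 5 CPM in 3 libraries 1 higher and 3 lower, and library size alone 4 lower. For intermediate vs progenitor, only the 2 populations gave 1 higher, and at least 5 CPM or an even background subtracted 1 lower. For smooth muscle vs progenitor, at least 5 CPM gave 0 higher and 6 lower, library size alone 5 lower, and an even background subtracted 1 higher. For preadipocyte vs intermediate, at least 5 CPM gave 4 lower, library size alone 4 higher and 5 lower, and no filter 4 higher and 6 lower. For smooth muscle vs intermediate, at least 5 CPM gave 3 lower, only the 2 populations 1 higher and 8 lower, library size alone 1 higher, and no filter 9 lower. For smooth muscle vs preadipocyte, at least 5 CPM gave 1 higher and no filter 2 higher. At least 5 CPM left 8 members differing among populations, of 10 tested, where 88.1% of all genes differed. The share of all genes called also moved between these fits.

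Leaving out single libraries gave 1 to 3 higher and 6 to 12 lower for preadipocyte vs progenitor, 0 to 1 and 1 to 4 for intermediate vs progenitor, 2 to 4 and 7 to 12 for preadipocyte vs intermediate, and 0 and 4 to 9 for smooth muscle vs intermediate. It gave 2 and 8 to 14 for smooth muscle vs progenitor, and 3 to 5 and 5 to 8 for smooth muscle vs preadipocyte. Libraries that moved a count by over 1.5 times are named with those comparisons.

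With the longest transcript as length, the level-weighted paralog number was 5.59 in progenitor, 5.81 in intermediate and 5.62 in smooth muscle libraries, HoxB held 19.7% in progenitor, 22.6% in intermediate and 15.5% in preadipocyte, and HoxC 23.7% in progenitor and 24.3% in intermediate. With no length scaling, the paralog number was 5.94 in preadipocyte libraries, HoxA held 54.5% in progenitor and 50.9% in intermediate, HoxB 19.0%, 22.4%, 13.8% and 22.1%, and HoxC 26.3%, 25.8%, 28.6% and 18.6% in progenitor, intermediate, preadipocyte and smooth muscle. With an even background subtracted, the paralog number was 5.54 in smooth muscle, HoxA held 59.3% there, and HoxD 0.363% in intermediate and 1.54% in smooth muscle. Depth limits the members of groups 10 to 13 and HoxD, which had few counts.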
